A study of Mus musculus with 12 samples.

Results

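The genes of cholesterol and fatty acid synthesis were followed in mouse embryonic fibroblasts kept for 6 h at 0.1% or 21% O2. They comprised 33 genes chosen by their role: 5 regulators of the sterol regulatory element binding proteins (SREBPs), 7 enzymes that make isoprenoids from acetyl-CoA, 11 enzymes that carry these on to cholesterol, 1 sterol transporter and 9 genes of fatty acid and lipid synthesis. The choice was made with earlier results of these data known. Each gene was represented by 1 probe set of the array, the one with the highest mean over the 12 arrays. A probe set had to reach a mean signal of at least 100. Of the 33 genes, 32 were measured in this way, against 10059 genes measured in the whole series. Acat2 was not analysed here, because the annotation used names no probe set for it.

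RNA was taken from 6 lines of primary embryonic fibroblasts, all from e14.5 embryos and all infected at passage 3 with an adenovirus carrying Cre recombinase, then expanded at least 100-fold. In the 3 triCH1 lines the CH1 domain had been deleted from 3 of the 4 alleles of Crebbp and Ep300, the genes for the transcriptional coactivators CBP and p300. The remaining allele was floxed, and it was Ep300 in triCH1flox2_1 and triCH1flox2_2 and Crebbp in triCH1flox1. The 3 control lines carried 1 floxed allele each, of Ep300 in flox2_1 and flox2_2 and of Crebbp in flox1. The CH1 domain binds the activation domain of the hypoxia-inducible factors. Each line gave 1 array after hypoxia (0.1% O2) and 1 after normoxia (21% O2), both with 5% CO2, so that the 4 groups held 3 arrays each: triCH1 hypoxia, triCH1 normoxia, control hypoxia and control normoxia. The replicates are separate lines, and the hypoxia and normoxia arrays of a line are a pair.

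As background, SREBP precursors are held in the endoplasmic reticulum by SCAP, their escort, which the INSIG proteins retain there when sterols are plentiful. When sterols fall, SCAP carries SREBP to the Golgi, where proteases release the part that enters the nucleus and switches on the genes of cholesterol and fatty acid synthesis. Several steps of sterol synthesis and fatty acid desaturation consume molecular oxygen, and INSIG2 is a known target of hypoxia-inducible factors.

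The proximal promoters of the genes on which the results turn are shown first, because SREBPs and hypoxia-inducible factors act through short motifs in DNA. Windows of 250 bases before the transcription start came from RefSeq (GRCm38.p6), which had entries for 26 of the 33 genes (34 windows). Each is written from 5′ to 3′ on the gene's strand. Capitals mark the sterol regulatory element TCACNCCAC, the hypoxia response core ACGTG and the CCAAT box, each searched on both strands (the box therefore also appears as ATTGG). The 4 genes shown are Hmgcs1 and both Insig genes, which gave some of the clearest responses, and Fasn, which had the largest negative value. Of the 3 windows of Insig2, 2 are shown. The first held CCAAT boxes only, and the second and the one not shown held no match. Sqle had no entry.
Hmgcs1, chr13:119690101-119690350 on the plus strand: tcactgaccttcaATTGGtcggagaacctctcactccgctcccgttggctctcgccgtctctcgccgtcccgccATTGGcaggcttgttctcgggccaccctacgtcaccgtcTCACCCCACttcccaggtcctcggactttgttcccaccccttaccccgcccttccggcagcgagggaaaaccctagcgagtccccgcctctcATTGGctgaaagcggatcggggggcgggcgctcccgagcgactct
Insig1, chr5:28071162-28071411 on the plus strand: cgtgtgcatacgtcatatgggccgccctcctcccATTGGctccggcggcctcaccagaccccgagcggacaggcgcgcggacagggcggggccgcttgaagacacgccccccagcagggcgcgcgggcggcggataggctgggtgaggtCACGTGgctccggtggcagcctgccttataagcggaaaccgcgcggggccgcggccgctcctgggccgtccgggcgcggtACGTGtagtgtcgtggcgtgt
Insig2, chr1:121332590-121332839 on the minus strand: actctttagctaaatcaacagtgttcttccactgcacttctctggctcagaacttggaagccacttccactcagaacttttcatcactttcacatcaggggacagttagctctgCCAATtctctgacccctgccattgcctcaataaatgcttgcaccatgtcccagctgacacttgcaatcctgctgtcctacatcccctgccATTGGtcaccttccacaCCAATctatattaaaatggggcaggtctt
Insig2, chr1:121328025-121328274 on the minus strand: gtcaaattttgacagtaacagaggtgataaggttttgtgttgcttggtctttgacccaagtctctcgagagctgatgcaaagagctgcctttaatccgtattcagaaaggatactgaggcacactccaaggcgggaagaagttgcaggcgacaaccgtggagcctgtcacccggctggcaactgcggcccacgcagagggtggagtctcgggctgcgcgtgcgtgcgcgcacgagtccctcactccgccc
Fasn, chr11:120824548-120824797 on the minus strand: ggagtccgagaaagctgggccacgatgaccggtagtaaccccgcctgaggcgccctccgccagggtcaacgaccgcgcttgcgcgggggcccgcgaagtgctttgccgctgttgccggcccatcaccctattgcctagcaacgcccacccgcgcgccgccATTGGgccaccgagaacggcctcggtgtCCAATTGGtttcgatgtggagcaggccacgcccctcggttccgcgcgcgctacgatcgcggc
The Hmgcs1 window held TCACCCCAC 137 bases before the start, and it was the only one of the 34 windows with a match to the sterol element. Such matches stood in 1.05% of all 32851 mouse windows of the same length. The hypoxia core stood in 6 of the 34 windows (17.6%), a share near the 16.6% of all windows. In Insig1 it appeared as the palindrome CACGTG, read on both strands, and again 21 bases before the start. The CCAAT box stood in 20 of the 34 windows (58.8%) and in 33.8% of all windows. A match is a run of letters and shows no binding.

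Across the 6 lines, 3 of the 32 genes were called higher in hypoxia than in normoxia and 0 were called lower. The 3 were Insig2, Hmgcs1 and Sqle, which stand at the sensor, at the entry to isoprenoid synthesis and at the oxygen-using step that commits squalene to sterols. A call is an adjusted p under 0.05 in limma on log2(signal + 20), with Benjamini-Hochberg adjustment over all 18903 probe sets tested, and each p below is of this kind. Of all probe sets, 1.42% were called higher and 0.328% lower. With each line compared with itself (line as a block), 7 genes were called higher, with Insig1, Stard4, Scd2 and Lpin1 added, and 0 were called lower. The block raised the share of all probe sets called to 2.41% higher and 1.26% lower. The genes did not move as one body: 17 had a positive and 15 a negative mean change, with a median of 0.03 against -0.03 over all probe sets. Fewer cells of a type and less RNA per cell cannot be told apart in such bulk samples.

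**Figure D1:**
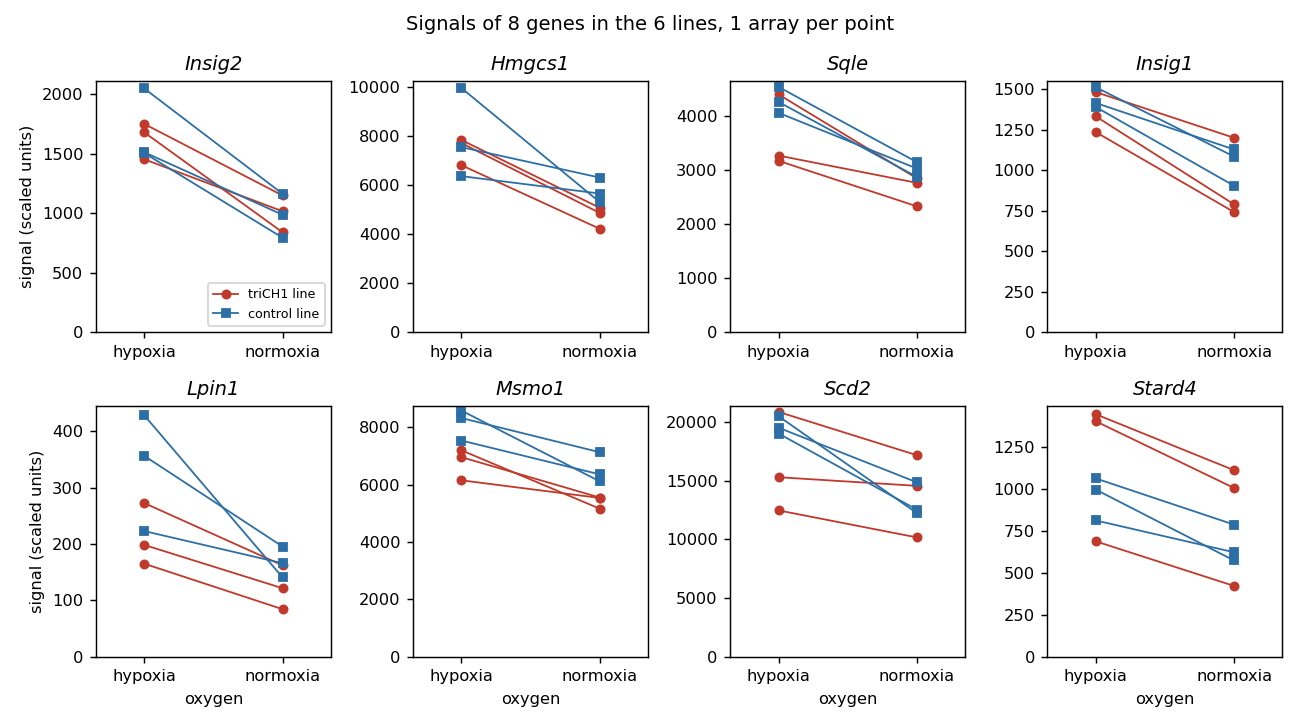
Signals (authors' scaled units, linear axis from 0) of the 8 genes that were higher in hypoxia in 6 of 6 lines. Each point is 1 array and each line joins the hypoxia (left) and normoxia (right) arrays of 1 fibroblast line, with triCH1 lines in red and control lines in blue. For Insig2, Hmgcs1, Sqle and Insig1 every hypoxia point lies above every normoxia point.

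Among the SREBP regulators, the INSIG genes stood apart from the others. Insig2, which encodes an endoplasmic reticulum protein that retains SCAP, had signals of 1750, 1679 and 1453 in triCH1 hypoxia, against 1149, 839.5 and 1016 in triCH1 normoxia (lines triCH1flox2_1, triCH1flox2_2 and triCH1flox1, in this order throughout). In the control lines flox2_1, flox2_2 and flox1 it had 1512, 1505 and 2048 in hypoxia, against 986.6, 794 and 1163 in normoxia. All 6 hypoxia arrays lay above all 6 normoxia arrays. Its mean was 1658 ± 222.3 in hypoxia and 991.4 ± 152.9 in normoxia (SD, n = 6 each), a log2 change of 0.73 ± 0.136 (SE; limma adjusted p = 0.00978; 95% interval 0.44 to 1.03). All 3 of its probe sets were called, with log2 changes of 0.61 to 0.80. Without triCH1flox2_2 the value was 0.66 and the adjusted p 0.0882, and it was called without each of the other 5 lines.

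Insig1, the close relative of Insig2 and itself a gene that SREBPs switch on, had 1235, 1332 and 1482 in triCH1 hypoxia, against 741.4, 788.8 and 1200 in triCH1 normoxia. The control lines had 1390, 1512 and 1415 in hypoxia, against 903.6, 1084 and 1128 in normoxia. Here too no hypoxia array lay below a normoxia array, although the highest normoxia signal (1200, in triCH1flox1) was close to the lowest hypoxia signal (1235, in triCH1flox2_1). The log2 change of 0.53 ± 0.133 missed the threshold without the block (limma adjusted p = 0.0691) and passed it with the block (0.0154). Of the 6 omissions of a line it passed in 1, without triCH1flox1, at 0.60 (limma adjusted p = 0.0232). Over the 6 the adjusted p ran up to 0.286. Of 9 other settings it passed in 2, the block and 1 value per gene (0.0468). Insig1 has only 1 probe set, so its signals were the same there, and the adjustment was over 10059 genes.

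Srebf1, Srebf2 and Scap, which encode the 2 SREBP precursors and their escort, gave no call. Srebf1 had 1904, 1844 and 2560 in triCH1 hypoxia, against 1598, 2396 and 2010 in triCH1 normoxia, and 2051, 1856 and 2316 in control hypoxia, against 1168, 1909 and 1704 in control normoxia. It was higher in 4 of 6 lines, and its mean log2 change was 0.24 ± 0.150 (adjusted p = 0.625). Srebf2, the form most tied to cholesterol synthesis, had 1423, 959.1 and 1492 in triCH1 hypoxia, against 1266, 1705 and 1354 in triCH1 normoxia. In control lines it had 1171, 869.9 and 1040 in hypoxia, against 1118, 1320 and 1022 in normoxia. In each line type the line ending in flox2_2 was lower in hypoxia, and the other 4 lines were slightly higher. The mean log2 change was -0.17 ± 0.143 (adjusted p = 0.743), and the second probe set gave -0.38 (adjusted p = 0.251). Scap had 1876, 1438 and 2096 in triCH1 hypoxia, against 1867, 2267 and 1941 in triCH1 normoxia, and 1868, 1483 and 2187 in control hypoxia, against 1309, 2247 and 2268 in control normoxia. The lines triCH1flox2_2 and flox2_2 were again the low ones in hypoxia. Its mean log2 change was -0.11 ± 0.161 (adjusted p = 0.872), and it was 0.01 without triCH1flox2_2 and 0.02 without flox2_2.

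Of the 6 mevalonate pathway enzymes measured, which build isoprenoid units from acetyl-CoA, 1 was called higher. Hmgcs1, the cytosolic HMG-CoA synthase, had 7712, 7838 and 6809 in triCH1 hypoxia, against 4864, 5074 and 4217 in triCH1 normoxia. Control lines had 7545, 9957 and 6364 in hypoxia, against 6306, 5304 and 5654 in normoxia. The lowest hypoxia array, of flox1, was just above the highest normoxia array, of flox2_1. The mean was 7704 ± 1242 in hypoxia and 5237 ± 710.8 in normoxia (SD, n = 6 each), a log2 change of 0.55 ± 0.112 (limma adjusted p = 0.0193). All 4 probe sets of the gene were called, at 0.55 to 0.64, and probe sets of 1 gene are not independent. The highest probe set kept its call only when flox1 was the line left out, and the adjusted p lay between 0.0270 and 0.103 over the 6 omissions.

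The later enzymes of this segment gave no call. Mvk, mevalonate kinase, had a mean log2 change of -0.14, Pmvk (the next kinase) 0.17, Mvd (the decarboxylase) 0.02 and Fdps (farnesyl diphosphate synthase) -0.01. Fdps was among the brightest probe sets, with 9186 ± 748.8 in hypoxia and 9329 ± 1344 in normoxia (SD, n = 6 each). Idi1, the isomerase between them, varied most from line to line. It had 3411, 3903 and 2840 in triCH1 hypoxia, against 2938, 3255 and 1300 in triCH1 normoxia, but 2039, 4159 and 1701 in control hypoxia, against 3659, 2100 and 2610 in control normoxia. Per line its log2 change thus ran from -0.84 in flox2_1 to 1.12 in triCH1flox1, around a mean of 0.19 ± 0.254 (adjusted p = 0.863). Elovl6, the elongase of long-chain fatty acids, went with it: both were lower in hypoxia in flox2_1 and flox1 and higher in the other 4 lines. The 2 probe sets of Elovl6 differed in sign in the mean response, at 0.11 and -0.20.

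In the sterol branch, where 11 enzymes turn farnesyl units into cholesterol, 1 gene was called higher and 0 lower. Sqle, squalene epoxidase, had 4407, 3176 and 3274 in triCH1 hypoxia, against 2852, 2333 and 2768 in triCH1 normoxia. Control lines had 4268, 4066 and 4546 in hypoxia, against 2879, 3034 and 3153 in normoxia. The 6 hypoxia arrays lay above the 6 normoxia arrays, narrowly in triCH1flox2_2. The means were 3956 ± 589.2 in hypoxia and 2837 ± 282.5 in normoxia (SD, n = 6 each). The log2 change was 0.47 ± 0.106 (limma adjusted p = 0.0385), and the call was lost when any 1 of the 6 lines was left out, with values of 0.42 to 0.52 and adjusted p between 0.0583 and 0.194.

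Msmo1, the methylsterol monooxygenase that removes methyl groups with oxygen, was higher in hypoxia in every line. It had 6962, 7201 and 6155 in triCH1 hypoxia, against 5554, 5166 and 5540 in triCH1 normoxia, and 7542, 8587 and 8326 in control hypoxia, against 6363, 6119 and 7135 in control normoxia. Within each line type the hypoxia arrays lay above the normoxia arrays. The log2 change of 0.32 ± 0.083 did not pass (limma adjusted p = 0.0853, and 0.0506 with the block). The other 9 sterol enzymes had mean changes from -0.20 for Ebp, the sterol isomerase, to 0.20 for Fdft1, squalene synthase. Cyp51, the oxygen-dependent lanosterol demethylase, was at 0.03 ± 0.098, with 3237 ± 330.8 in hypoxia and 3169 ± 253.2 in normoxia (SD, n = 6 each). Its dimmer probe sets gave higher values, 0.13 and 0.50, as did those of Sc5d, a sterol desaturase (0.11 and 0.41 against 0.08), and Lss, which closes the sterol rings (0.41 against 0.16), and none of these was called. Stard4, which carries sterols between membranes, had 1447, 1405 and 688.8 in triCH1 hypoxia, against 1113, 1007 and 422.7 in triCH1 normoxia. In control lines it had 813.3, 997.4 and 1064 in hypoxia, against 623.6, 574.5 and 788.4 in normoxia. The triCH1 groups overlapped, with triCH1flox1 the lowest line, and the control groups did not. Within each line hypoxia was higher. The log2 change of 0.52 ± 0.241 was called only with the block (limma adjusted p = 0.444 without it and 0.0206 with it).

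**Figure D2:**
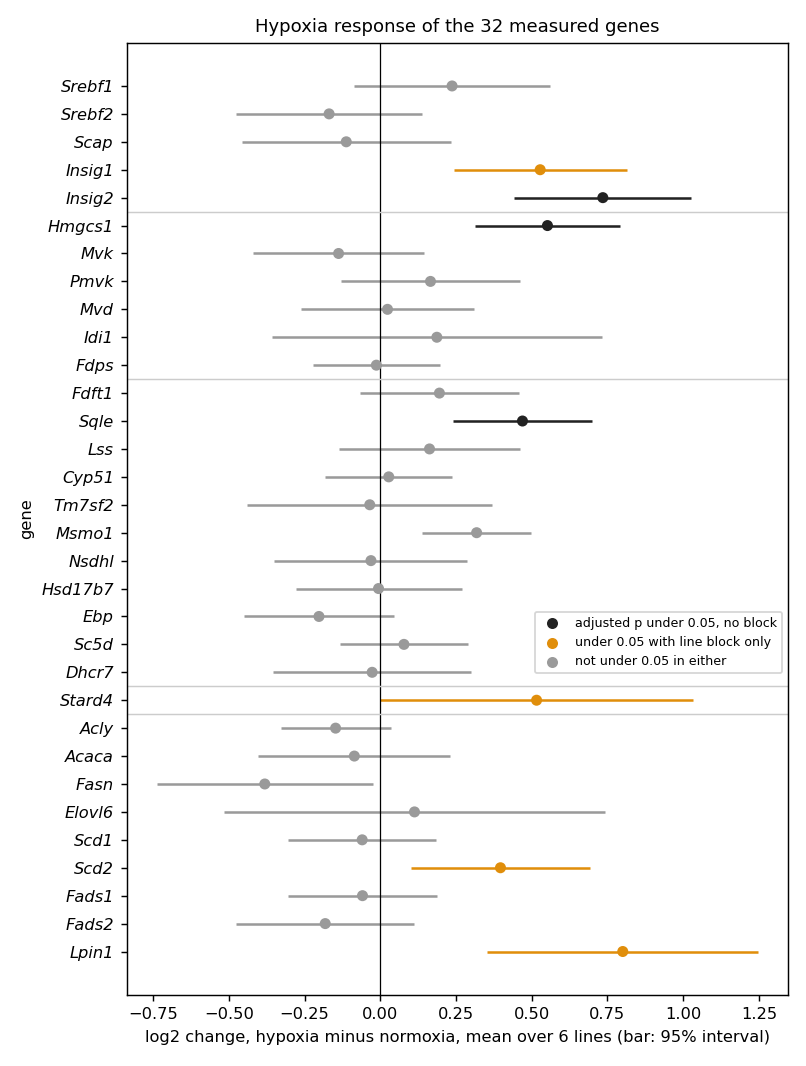
Mean log2 change, hypoxia minus normoxia, over the 6 lines (horizontal axis) for the 32 measured genes, ordered by role from SREBP regulators at the top to fatty acid genes at the bottom. Points are limma estimates without the block and bars their 95% intervals; black marks an adjusted p under 0.05, orange one under 0.05 only with the line block. Insig2, Hmgcs1 and Sqle are black, and Insig1, Stard4, Scd2 and Lpin1 are orange.

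Of the 9 fatty acid and lipid genes, 0 were called without the block, 2 were called higher with it, and the median change was -0.06. Scd2, a stearoyl-CoA desaturase and the brightest of the genes, had 12464.3, 15291.8 and 20850.8 in triCH1 hypoxia, against 10165.7, 14557.6 and 17167.2 in triCH1 normoxia. It had 20483.3, 19506.1 and 19008.4 in control hypoxia, against 12233.3, 14856.3 and 12529.6 in control normoxia. The control groups did not overlap, while the triCH1 groups did. Per line, the log2 changes of Scd2 were 0.29, 0.07 and 0.28 in triCH1 lines, against 0.74, 0.39 and 0.60 in control lines. Its mean log2 change was 0.40 ± 0.138 (limma adjusted p = 0.235, and 0.00605 with the block). Scd1, the other desaturase measured, had 3451 ± 750.9 in hypoxia and 3592 ± 746.2 in normoxia (SD, n = 6 each), and its lines changed by only -0.11 to -0.02.

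Lpin1, a phosphatidate phosphatase of triglyceride synthesis, was the dimmest of the genes and had the highest mean change. It had 165.2, 198.5 and 272.8 in triCH1 hypoxia, against 84.5, 121.7 and 162.4 in triCH1 normoxia, and 356.6, 223.1 and 428.5 in control hypoxia, against 195.7, 166 and 140.9 in control normoxia. It was higher in hypoxia in 6 of 6 lines, though a triCH1 hypoxia array (165.2) lay below a control normoxia array (195.7). The log2 change was 0.80 ± 0.209 (limma adjusted p = 0.0827, and 0.0225 with the block). The second probe set gave 0.79, with adjusted p of 0.260 and 0.125.

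Fasn, fatty acid synthase, was lower in hypoxia in 6 of 6 lines without passing the test. It had 3754, 2532 and 5025 in triCH1 hypoxia, against 4284, 5418 and 5092 in triCH1 normoxia, and 3240, 2841 and 4052 in control hypoxia, against 3278, 5072 and 4467 in control normoxia. Most of the difference lay in triCH1flox2_2 and flox2_2, with log2 changes of -1.09 and -0.83, while the other lines were between -0.19 and -0.02. The mean was -0.38 ± 0.166 (limma adjusted p = 0.403, and 0.176 with the block). Acly, which supplies cytosolic acetyl-CoA, was also lower in all lines, at a mean of -0.15 ± 0.084 (adjusted p = 0.575). Acaca, the first committed enzyme of fatty acid synthesis, was at -0.09, and the desaturases Fads1 and Fads2 were at -0.06 and -0.18.

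The patterns by line can be set against all probe sets, as a description only. The genes were chosen with earlier results of these data known. Each is also the brightest probe set of its gene, while the share covers all probe sets tested, dim ones included. The 8 genes higher in all 6 lines (Insig1, Insig2, Hmgcs1, Sqle, Msmo1, Stard4, Scd2 and Lpin1) were 25.0% of the 32, against 5.14% of all probe sets. The 3 genes lower in all 6 lines (Acly, Fasn and Scd1) were 9.38%, against 7.23%. All 6 hypoxia arrays stood above all 6 normoxia arrays for 4 genes (12.5%), against 1.43% of all probe sets, and stood below for 0 genes, against 0.709%. A further pattern was picked after its values were seen: Srebf2, Scap, Fasn and Fads2 were lower by more than 0.4 on the log2 scale in both triCH1flox2_2 and flox2_2. These 4 genes were 12.5% of the 32, against 7.46% of all probe sets. The 8 enzymes that use molecular oxygen (Sqle, Cyp51, Msmo1, Sc5d, Scd1, Scd2, Fads1 and Fads2) divided into 5 positive and 3 negative mean changes. Their median was 0.05, against -0.03 over all probe sets. Of the 8, 1 was called higher without the block and 2 with it, against 1.42% and 2.41% of all probe sets.

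**Figure D3:**
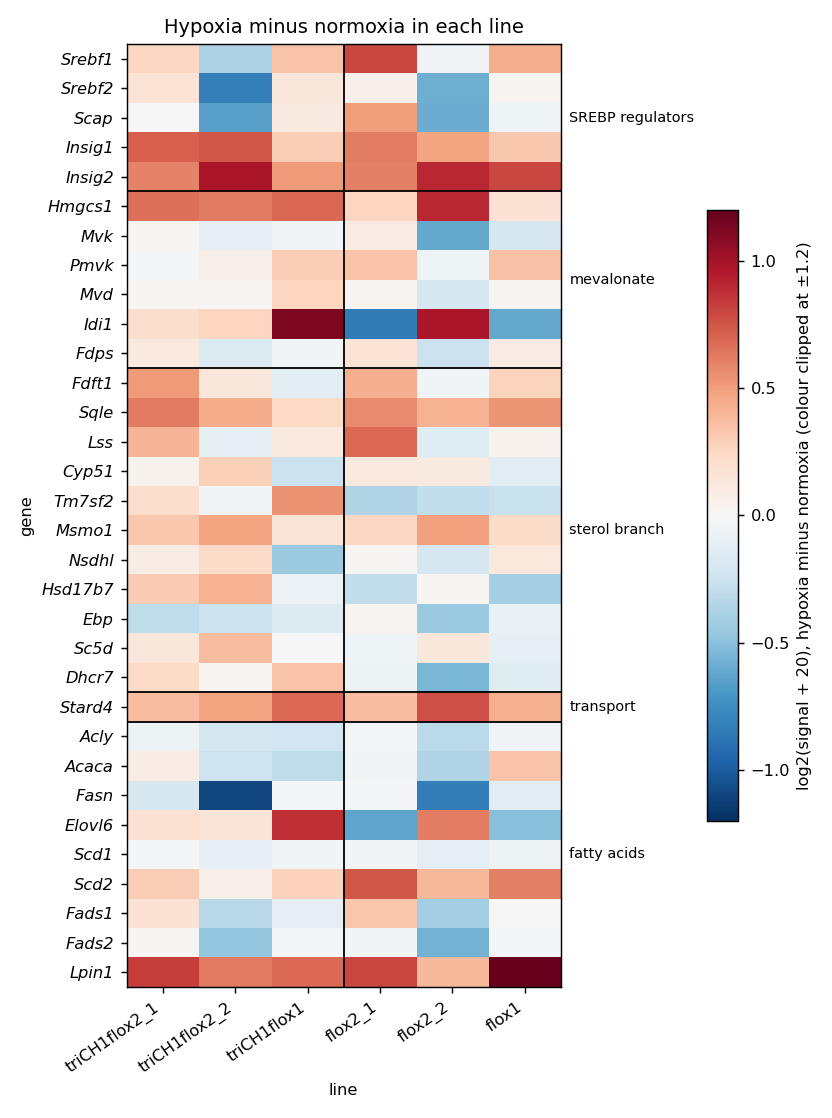
Log2 change of signal, hypoxia minus normoxia, for the 32 genes (rows, grouped by role) in each line (columns, 3 triCH1 lines left of 3 control lines). Red is higher and blue lower in hypoxia, and the colour is clipped at 1.2, which affects only Lpin1 in flox1 (1.48). Insig1, Insig2, Hmgcs1, Sqle, Msmo1, Stard4, Scd2 and Lpin1 are red in every column, while Fasn and Srebf2 are darkest blue in triCH1flox2_2.

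The response was next taken within each line type, which asks whether it depended on the CH1 domains. In triCH1 lines 0 of the 32 genes were called (0.63% of all probe sets were called higher and 0.00529% lower), and in control lines 0 were called (0.799% higher, 0.0317% lower). With the block, 0.936% of all probe sets were called higher and 0.0635% lower in triCH1 lines, and Hmgcs1 was among them (0.66 ± 0.140, adjusted p = 0.0383). In control lines these shares were 1.21% and 0.185%, and Insig2 (0.77, adjusted p = 0.0201) and Scd2 (0.58, adjusted p = 0.00802) were called higher. At an unadjusted p under 0.05 the count was 6 genes in triCH1 lines and 7 in control lines, all higher in hypoxia. Of all probe sets, 3.23% in triCH1 lines and 2.98% in control lines were higher at that level. Insig2 changed by 0.70 ± 0.192 in triCH1 lines and 0.77 ± 0.192 in control lines. Hmgcs1 changed by 0.66 ± 0.158 in triCH1 lines and 0.44 ± 0.158 in control lines, and Sqle by 0.44 ± 0.150 in triCH1 lines and 0.50 ± 0.150 in control lines.

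The difference between the responses was not called for any of the 32 genes, as for 0.0% of all probe sets, with or without the block. At an unadjusted p under 0.05 it held for 0 of the 32 genes, against 0.333% of all probe sets higher and 0.36% lower. With the block it held for Tm7sf2, higher in triCH1 lines, and Scd2, lower in triCH1 lines, against 0.857% of all probe sets higher and 0.741% lower. Scd2 changed by 0.21 ± 0.195 in triCH1 lines and 0.58 ± 0.195 in control lines, a difference of -0.36 ± 0.275 (95% interval -0.96 to 0.23; limma adjusted p = 1, and 1.00 with the block). For Insig2 the difference was -0.08 ± 0.272, with a 95% interval of -0.66 to 0.51, and for Hmgcs1 it was 0.21 ± 0.224 (-0.27 to 0.70). For Insig1 it was 0.12 (-0.45 to 0.69), for Sqle -0.07 (-0.53 to 0.39) and for Msmo1 0.00 (-0.36 to 0.36). Intervals of this width leave room for a difference as large as much of the response itself.

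Without the block, the smallest p-values of the difference belonged to sterol enzymes that were near 0 in the mean response. Hsd17b7, a ketosteroid reductase of the pathway, had 1154, 903.9 and 892.1 in triCH1 hypoxia, against 933, 672.9 and 934.8 in triCH1 normoxia, and 1259, 1339 and 1065 in control hypoxia, against 1550, 1320 and 1421 in control normoxia. Its difference was 0.44 ± 0.255 (95% interval -0.10 to 0.99, adjusted p = 1). Dhcr7, the 7-dehydrocholesterol reductase, had 469.6, 451.5 and 489.4 in triCH1 hypoxia, against 398.8, 443.9 and 381.1 in triCH1 normoxia, and 262.4, 328.4 and 365.6 in control hypoxia, against 275, 490.4 and 405.1 in control normoxia. It was the only one of the 32 genes higher in all lines of one type and lower in all of the other (3.13%, against 0.889% of all probe sets), and its difference of 0.45 ± 0.304 did not pass (adjusted p = 1). Tm7sf2, a sterol reductase, had 365, 563.1 and 700.6 in triCH1 hypoxia, against 311.9, 577.1 and 475.3 in triCH1 normoxia, and 314.5, 436 and 416.9 in control hypoxia, against 410.5, 541.3 and 505.2 in control normoxia. Its difference was 0.55 ± 0.376 (adjusted p = 1).

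Levels in triCH1 and control lines were then compared at each oxygen level. The lines also differed in sex-linked genes and in Thy1, a fibroblast surface marker, and the part of these in the comparisons was not tested. The Y-linked Eif2s3y was at 1143 to 1173 in triCH1flox2_1 and 3.8 to 33 in the other triCH1 lines, against 919.4 to 1821 in flox2_2 and flox1 and 1.7 to 6.2 in flox2_1. Of the genes described here, Nsdhl and Ebp are X-linked. Thy1 was at 2307 to 4001 in the triCH1 arrays, against 4624 to 7558 in the control arrays. In hypoxia 0 of the 32 genes were called (0.00529% of all probe sets were called higher and 0.0688% lower), and at an unadjusted p under 0.05 4 were higher and 1 lower, against 4.16% and 3.81% of all probe sets. In normoxia 0 were called (0.0% higher, 0.00529% lower). Here a line cannot be compared with itself, so the block was a correlation of 0.3 shared by the arrays of each line. With this block 0 genes were called at either oxygen level, when 0.0899% of all probe sets were called lower in hypoxia and 0.0159% in normoxia. In normoxia 3 genes were higher and 2 lower at an unadjusted p under 0.05, against 3.73% and 3.83% of all probe sets. The counts over all probe sets were larger without triCH1flox1, at 94 higher and 182 lower in hypoxia and 86 and 159 in normoxia, against 1 and 13 in hypoxia and 0 and 1 in normoxia with all lines. Of the 32 genes 0 were called without it too. The fatty acid genes had positive values for 7 of 9 in hypoxia and 8 of 9 in normoxia, each with a median of 0.22, against 0.03 in hypoxia and 0.02 in normoxia over all probe sets. The sterol branch had negative values for 7 of 11 in hypoxia and 8 of 11 in normoxia, with medians of -0.12 in both.

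In hypoxia the smallest p-values were those of Scd1, Fads2 and Fads1, while Elovl6 (0.76 ± 0.415) and Dhcr7 (0.54 ± 0.215) had larger differences with wider errors. Scd1 had 4125, 3500 and 4475 in triCH1 hypoxia, against 2995, 3170 and 2437 in control hypoxia, and 4176, 3761 and 4593 in triCH1 normoxia, against 3064, 3417 and 2542 in control normoxia. The triCH1 lines lay above the control lines at both oxygen levels, by 0.49 ± 0.161 in hypoxia and 0.48 ± 0.161 in normoxia (limma adjusted p = 0.445 and 0.465). Fads1, the delta-5 desaturase, had 3185, 2499 and 3115 in triCH1 hypoxia, against 2387, 1896 and 2292 in control hypoxia, and 2821, 3159 and 3383 in triCH1 normoxia, against 1888, 2522 and 2289 in control normoxia. Its groups did not overlap either, and it differed by 0.42 ± 0.162 in hypoxia and 0.49 ± 0.162 in normoxia (adjusted p = 0.541 and 0.462). Fads2, the delta-6 desaturase, had 1663, 1682 and 2243 in triCH1 hypoxia, against 1244, 1233 and 1433 in control hypoxia, and 1646, 2321 and 2287 in triCH1 normoxia, against 1270, 1842 and 1451 in control normoxia. It overlapped in normoxia only, with differences of 0.50 ± 0.193 in hypoxia and 0.45 ± 0.193 in normoxia (adjusted p = 0.534 and 0.625).

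Hsd17b7 was the lowest of the genes in triCH1 lines in normoxia, by -0.76 ± 0.180 (limma adjusted p = 0.233), and by -0.31 ± 0.180 in hypoxia (adjusted p = 0.698). In normoxia its 3 triCH1 arrays, given above, lay below the 3 control arrays. In hypoxia all 3 triCH1 lines were above for 5 genes (15.6%, against 7.10% of all probe sets) and below for 2 (6.25%, against 6.05%). In normoxia they were above for 3 genes (9.38%, against 6.18%) and below for 4 (12.5%, against 4.64%).

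**Figure D4:**
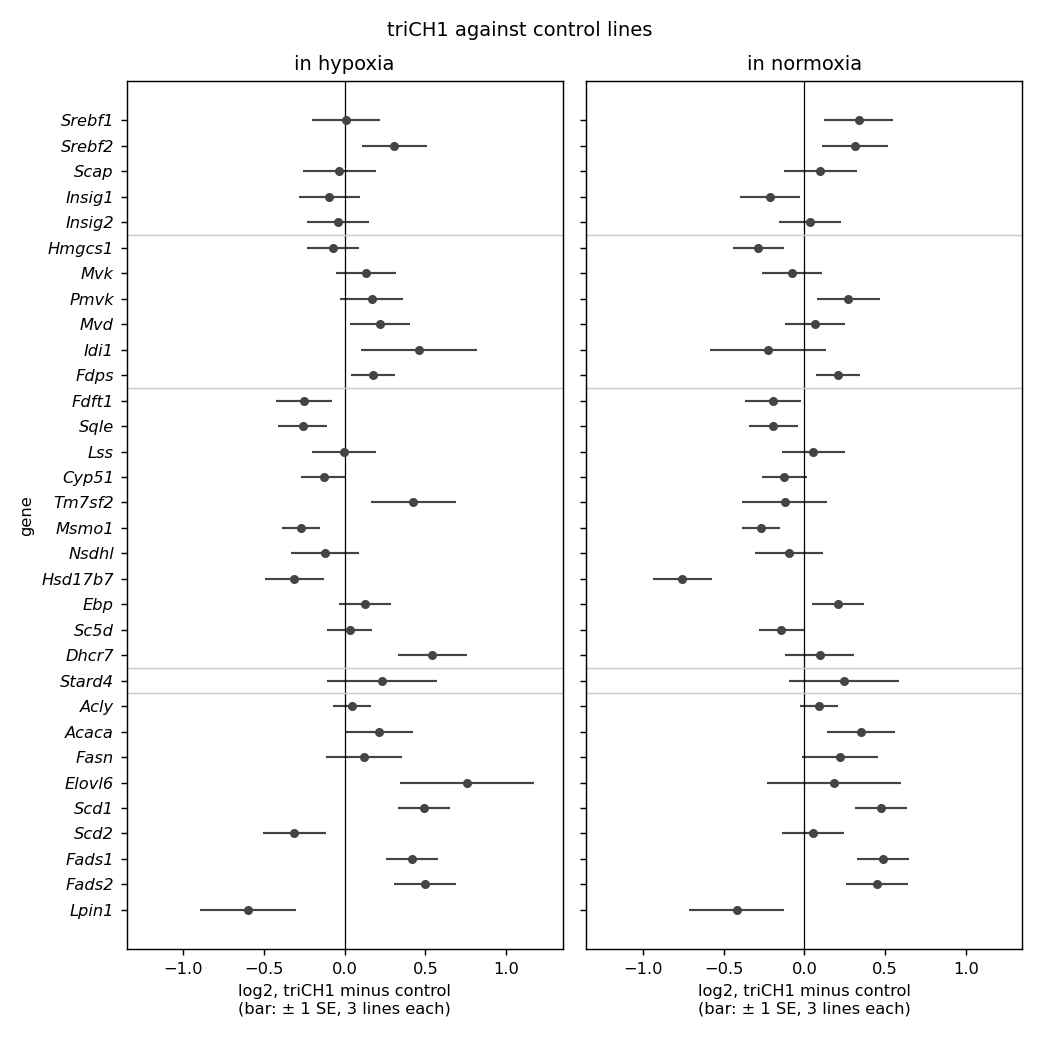
Difference in log2 signal, triCH1 minus control lines (horizontal axes), for the 32 genes in hypoxia (left) and normoxia (right), with genes in the same order by role. Points are limma estimates and bars 1 standard error, with 3 lines per group. Scd1, Fads1 and Fads2 lie to the right at both oxygen levels and Hsd17b7 to the left in normoxia, and 0 of the 32 genes were called.

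Of 25 further SREBP and sterol genes, 18 were measured and 1 was called, lower in hypoxia, against 0.328% of all probe sets called lower. Syvn1, an endoplasmic reticulum ubiquitin ligase also known as HRD1, had 1018, 867.2 and 1339 in triCH1 hypoxia, against 1541, 1742 and 1650 in triCH1 normoxia. Control lines had 1048, 918.3 and 1213 in hypoxia, against 1435, 1734 and 1609 in normoxia. All 6 hypoxia arrays lay below all 6 normoxia arrays, as for 0.709% of all probe sets. The log2 change was -0.60 ± 0.127 (limma adjusted p = 0.0250). The next smallest p-values were those of Rnf139 and Faf2, which also act in protein degradation at the endoplasmic reticulum, at -0.26 and -0.25 (adjusted p = 0.480 and 0.494).

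Of 22 further fatty acid genes 15 were measured and 0 were called, against 1.42% of all probe sets called higher and 0.328% lower. Of the values 11 were negative, with a median of -0.07 against -0.03 over all probe sets. The smallest p was that of Hacd2, a dehydratase of fatty acid elongation, at -0.31 ± 0.118 (limma adjusted p = 0.306). Of 8 sterol efflux genes and genes switched on by liver X receptors, 3 were measured. Mylip, the ligase that degrades the LDL receptor, had 364.2, 517 and 337.8 in triCH1 hypoxia, against 603, 566.9 and 492.5 in triCH1 normoxia, and 440, 362.3 and 363.8 in control hypoxia, against 623.8, 669.2 and 515.5 in control normoxia. It was lower in hypoxia in 6 of 6 lines, by -0.53 ± 0.140, and was called only with the block (limma adjusted p = 0.0911 without it and 0.0379 with it). Of all probe sets, 7.23% were lower in 6 of 6 lines and 1.26% were called lower with the block.

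The 3′ to 5′ signal ratio of actin was 1.10 to 1.17 in hypoxia and 1.12 to 1.17 in normoxia. That of Gapdh was 0.78 to 0.81 in hypoxia and 0.74 to 0.79 in normoxia, and was higher in hypoxia in 5 of 6 lines. The authors' scale factors ran from 3.35 to 4.28 in hypoxia and from 2.57 to 4.07 in normoxia and were also higher in hypoxia in 5 of 6 lines. The part of these in the response was not tested. Array medians ran from 57.2 to 76.1. Of 6 hypoxia-inducible genes, 5 were called higher in the mean response, led by Bnip3 at 4.42 ± 0.130 (limma adjusted p = 2.19e-10). Vegfa was the other (0.88, limma adjusted p = 0.0746, and 2.00e-04 with the block). All 6 responded less in triCH1 than in control lines, with differences of -1.40 to -0.07, and 0 of these were called. Egln3, one of the 6, was at 1028 to 1780 in triCH1 hypoxia, against 5388 to 6799 in control hypoxia. In normoxia it was at 184.8 to 400.8 in triCH1 lines and 446.2 to 519.4 in control lines. The test of the difference thus left even such a gene uncalled. The 10 fibroblast markers measured all passed the signal minimum, with sums of 118094.6 to 158547.6 in triCH1 hypoxia, 134177 to 145350.1 in triCH1 normoxia, 134441 to 171070.7 in control hypoxia and 127671.1 to 163785.3 in control normoxia. Within the list, Lum, a matrix proteoglycan gene, was at 3678 to 4269 in triCH1flox2_1 and at most 815.9 in the other lines, and its part in the results was not tested. Of 8 adipocyte markers 2 passed, and the sums overlapped between groups, at 1050 to 2234 in triCH1 hypoxia, 849.9 to 2306 in triCH1 normoxia, 1214 to 2473 in control hypoxia and 1023 to 1644 in control normoxia. The 2 that passed were Fabp4, at 473.8 to 2048 over the arrays, and Pparg. Pparg was at 470.3 to 698.2 in triCH1flox2_1 and at most 247 in the other lines. Adipoq, which defines adipocytes, had a mean of only 20.9. The part of these genes in the results was not tested. Of 6 hepatocyte markers 0 passed. The brightest Crebbp probe set had 698.7 to 1852 over the triCH1 arrays and 713.1 to 1837 over the control arrays. Whether its probes lie in the deleted CH1 part is not given in the sources used here.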

How the data were processed

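Total RNA of 12 cultures was hybridised to Affymetrix Mouse430_2 arrays (biotin label, 1 colour). The deposited values are linear probe set signals, an intensity computed by the authors with the manufacturer's Statistical algorithm at a target of 500, per the labels; the trimmed mean of each array was checked to be 500. The software version is not given in the sources used here. Of 45101 probe sets, 64 manufacturer's controls were left out, and 18903 with a mean of at least 100 were tested as log2(signal + 20) with limma 3.58.1 in R 4.3.3 (1 mean per group, eBayes with a variance trend, two-sided, Benjamini-Hochberg over all probe sets within a contrast). Fold and log2 changes are on that scale, which understates changes of dim genes. Genes were named from the array's annotation table: it gives 1 symbol to 34945 probe sets, several to 932 and none to 9160, and only those with 1 were named. The number of arrays limits the precision.

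The main fit had no block. Arrays of the same line name come from the same line, so the fit with line as a block is given wherever it changed a call. The block was a term for each line in the contrasts of hypoxia and normoxia. For triCH1 against control lines it was a single correlation, shared by the arrays of each line. After removal of group means, the 2 arrays of a line correlated at between -0.02 (flox2_2) and 0.58 (triCH1flox2_1). The genes and lists were chosen with earlier results of these data known. Signals in every array are given for genes called in any contrast with or without the block, for the 6 smallest p in the mean response and the 3 smallest in each other contrast, and for the SREBP regulators. Idi1, Fasn, Elovl6, Thy1, Lum, Dcn, Pdgfra, Fabp4, Pparg, Eif2s3y and the signals of Egln3 were added after their values were seen. Alternatives were pseudocounts of 1 and 100, no filter or a minimum of 200, quantile normalization, median centring, no variance trend, 1 value per gene and omission of each line. Markers of macrophages, epithelium, endothelium and muscle had 4 of 6, 2 of 6, 0 of 5 and 2 of 6 probe sets at the signal minimum.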

Additional observations from a re-analysis of the deposited data

Results flagged for a closer look

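The hypoxia response of Dhcr7 stood out because it was positive in all 3 triCH1 lines and negative in all 3 control lines. The per-line log2 changes were 0.23, 0.02 and 0.34 in triCH1flox2_1, triCH1flox2_2 and triCH1flox1, against -0.06, -0.55 and -0.14 in flox2_1, flox2_2 and flox1. The difference, triCH1 minus control, was 0.45 ± 0.304 on the log2 scale, and its own test in limma did not pass (adjusted p = 1). Of all probe sets, 0.889% showed such an opposition.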

How the results depend on the processing

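In all, 45 results were recomputed under 15 alternatives, and 637 of 675 values were graded the same. For single genes the grade rested on direction and side of the threshold. The results also held counts of genes called. A count was graded the same when it was equal, also at 0, or changed little, as from 3 to 2 or 4. The share graded the same is therefore not a share of tests that held. In the mean response 3 genes were called higher without a block, 7 with line as a replicate block, 1 without the variance trend, 4 with 1 value per gene (Insig1 added) and 0 to 2 when 1 line was left out: 0 without triCH1flox2_2, 1 without flox2_1, flox2_2 or triCH1flox2_1. Insig2 lost its call only without triCH1flox2_2, Hmgcs1 without the variance trend (adjusted p = 0.0574) and in 5 of 6 omissions of a line, and Sqle without the filter (0.0560), with median centring (0.0504), without the trend (0.0803) and in 6 of 6 omissions. With the replicate block 2 genes were called in control lines and 1 in triCH1 lines, against 0 in each without it; with 1 value per gene, Hmgcs1 was called in triCH1 lines (1 gene). The median change of the 32 genes in control lines was -0.02, and 0.10 without flox2_2. The mean change of Scap was -0.11, and had the opposite sign at 0.02 without flox2_2 and 0.01 without triCH1flox2_2 (range over the omissions -0.25 to 0.02). Calls of triCH1 against control over all probe sets were more numerous without triCH1flox1, at 94 higher and 182 lower in hypoxia and 86 and 159 in normoxia. The cause of these changes was not tested. Calls over all probe sets in the mean response were 269 higher and 62 lower, 455 and 238 with the block, 266 and 34 with median centring, 175 and 65 with 1 value per gene, and 179 to 242 and 11 to 35 when a line was left out. The replicate block changed no other call of the 32 genes.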
